A study of Homo sapiens with 6 samples.

Results

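The 39 genes described here fold proteins in the endoplasmic reticulum (ER), sense stress there, or remove misfolded proteins from it, and they were measured in 786-O cells after knockdown of ALYREF. They were taken from a list of 41 symbols, and the 39 symbols with a row in the tables were used, out of 11679 genes in all. The listed symbols ERO1L and ERO1LB had no row of their own, and the rows under their present symbols ERO1A and ERO1B are given beside the 39 and are not counted among them. 786-O is a human line from a renal cell carcinoma of the clear cell type, and all 6 libraries came from this 1 line, grown in RPMI with 10% serum and transfected with DharmaFECT 1. The 3 groups of 2 libraries were a non-targeting siRNA (NTC, Qiagen Allstars Neg Ctrl), ALYREF siRNA5 and ALYREF siRNA8, each harvested 48 h after transfection. A split of the cells at 24 h is recorded for all 6 libraries. The labels do not say whether the 2 libraries of a group came from separate cultures. Every p-value rests on these libraries alone, and the spread between them may be technical. The siRNA sequences are not given in the sources used here.

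ALYREF, the mRNA export adaptor that both siRNAs target, was rebuilt at 7711 normalized counts in NTC, 437.2 with siRNA5 and 603.9 with siRNA8. Of the 10 renal carcinoma and epithelial markers 8 had a row, PAX8 with a mean of 2354 normalized counts, while CA9 and LRP2 had none. Of the immune markers 1 of 6 had a row, CD68 at a mean of 202.4, of the endothelial markers 0 of 4, and of the fibroblast markers 2 of 4, the last at means of 48.5 (COL1A1) and 21.2 (PDGFRB).

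Proteins that enter the ER are folded by the Hsp70 chaperone BiP (HSPA5) with its J-domain cofactors, by the lectins calnexin and calreticulin, and by disulfide isomerases. When unfolded proteins accumulate, the membrane sensors IRE1 (ERN1), PERK (EIF2AK3) and ATF6 start the unfolded protein response, in which the factors XBP1 and cleaved ATF6 raise transcription of chaperone genes. Proteins that fail to fold are marked by mannose trimming, recognised by lectins, and pulled through the SEL1L-SYVN1 membrane complex to the proteasome, a route named ER-associated degradation (ERAD). Secretory and renal epithelial cells depend on this machinery for their membrane and secreted proteins.

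The best known DNA element of this response is the ER stress element (ERSE), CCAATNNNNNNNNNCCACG, which binds NF-Y and ATF6. A shorter form, ERSE-II, reads ATTGGNCCACG, and the element bound by XBP1, here called UPRE, was searched as TGACGTGG. Promoter windows of RefSeq (build GRCh38.p14, 250 bases before to 50 after an annotated start) were matched by symbol for 36 of the 39 genes and searched on both strands. PDIA3, DERL1 and DERL3 were not matched. ERSE occurred in 8 of the 36 genes (22.2%), in 0.176% of the 9087 measured genes with a window and in 0.0769% of all 35116 windows. The measured genes include the 36, so these 8 are among the 16 measured genes with ERSE. ERSE-II occurred in 3 of the 36 (8.33%), in 0.143% of the measured genes and in 0.0541% of all windows. UPRE occurred in DNAJC10, HYOU1 and VCP, 8.33% of the 36 genes against 1.28% of the measured genes and 0.729% of all windows. TGATGNAA, the core of the element bound by ATF4, occurred in HERPUD1 and CREB3L2, 5.56% against 2.65% of the measured genes and 3.62% of all windows. The ERSE copies are shown here because ATF6, a factor that binds the element, differed most between the siRNAs. Each is printed on the strand of its gene with the element in capitals, and an element in reverse orientation begins with CGTGG.
HSPA5, chr9:125241371-125241429, minus strand: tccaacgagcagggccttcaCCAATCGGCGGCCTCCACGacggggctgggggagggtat
HSP90B1, chr12:103930196-103930254, plus strand: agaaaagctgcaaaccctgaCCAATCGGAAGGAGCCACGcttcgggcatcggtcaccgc
HSP90B1, chr12:103930301-103930359, plus strand: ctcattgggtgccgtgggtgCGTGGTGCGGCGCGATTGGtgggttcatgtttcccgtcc
PDIA6, chr2:10812833-10812891, minus strand: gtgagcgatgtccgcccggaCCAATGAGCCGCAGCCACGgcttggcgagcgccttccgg
CRELD2, chr22:49918534-49918592, plus strand: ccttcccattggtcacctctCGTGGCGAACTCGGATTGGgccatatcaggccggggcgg
XBP1, chr22:28800583-28800641, minus strand: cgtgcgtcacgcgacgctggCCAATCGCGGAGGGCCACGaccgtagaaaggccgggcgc
CANX, chr5:179698758-179698816, plus strand: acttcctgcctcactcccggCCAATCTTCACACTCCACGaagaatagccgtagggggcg
CALR, chr19:12938364-12938422, plus strand: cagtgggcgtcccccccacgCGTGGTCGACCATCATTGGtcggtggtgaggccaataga
SERP1, chr3:150546690-150546746, minus strand: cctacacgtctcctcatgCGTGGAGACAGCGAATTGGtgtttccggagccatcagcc

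The ERSE of HSPA5 lies 66 to 48 bases before the annotated start, and that of XBP1 52 to 34 bases before it. HSP90B1 holds 1 copy in each orientation. The CANX copy falls in 3 windows that belong to different annotated starts. The ERSE-II copies of HYOU1, the Hsp70-like chaperone, HERPUD1, an ERAD membrane protein, and SDF2L1, a cofactor of BiP, complete the 11 genes with either element. The distal copy in HYOU1 overlaps its UPRE by 5 bases. In these lines capitals mark ERSE-II.
HYOU1, chr11:119057360-119057410, minus strand: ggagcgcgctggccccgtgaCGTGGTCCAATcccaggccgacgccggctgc
HYOU1, chr11:119057254-119057304, minus strand: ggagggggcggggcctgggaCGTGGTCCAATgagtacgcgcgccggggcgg
HERPUD1, chr16:56932005-56932055, plus strand: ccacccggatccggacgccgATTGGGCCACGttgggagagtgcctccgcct
SDF2L1, chr22:21642094-21642144, plus strand: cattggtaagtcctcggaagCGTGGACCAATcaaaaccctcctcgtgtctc

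**Figure D1:**
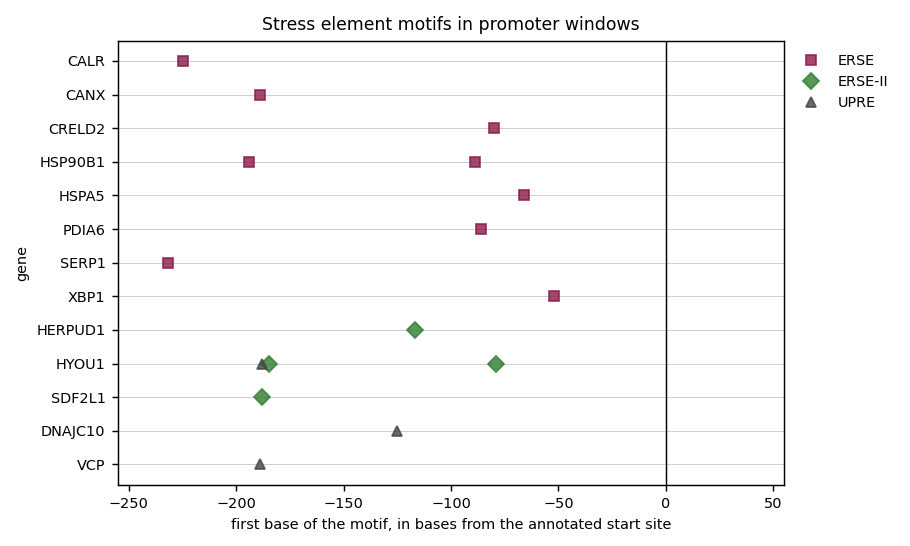
Position of each motif copy in the promoter windows: the horizontal axis gives the first base of the motif in bases from the annotated start site, each row is 1 gene, and the symbols stand for ERSE, ERSE-II and UPRE. All copies drawn lie before the start, from -232 (SERP1) to -52 (XBP1).

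The first question was how these genes moved with each siRNA. By the adjusted p-values of the authors' deposited tables, with 0.05 as the threshold, 21 of the 39 genes rose and 6 fell with siRNA5, where 24.4% of all genes rose and 22.0% fell. With siRNA8, 13 rose and 10 fell, where 21.0% of all genes rose and 20.5% fell. In these bulk libraries a change in the share of cells that express a gene and a change of its RNA per cell cannot be told apart. The 39 genes are well expressed, with a median of 1253 normalized counts against 459 for all genes, and well expressed genes are called more often. Among genes with a mean of at least 500, with p adjusted over those alone, 18 of 33 members rose with siRNA5 (54.5%, against 35.2% of 5538 genes) and 12 of 33 with siRNA8 (36.4%, against 29.9%). In the same genes 6 of 33 members fell with siRNA5 (18.2%, against 25.5%) and 10 of 33 with siRNA8 (30.3%, against 25.3%). The median log2 change per the authors' deposited tables was 0.19 with siRNA5 and -0.001 with siRNA8, where the median of all genes was 0.01 in each. Most changes were small: the called members changed by a median of 1.26-fold with siRNA5 and 1.17-fold with siRNA8. Changes of at least 1.5-fold in either direction were seen in 12.8% of members with siRNA5 (17.6% of all genes) and 5.13% with siRNA8 (15.4% of all genes). Both comparisons share the NTC libraries, so values of the 2 siRNAs are set side by side and their overlap is not read as a result.

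**Figure D2:**
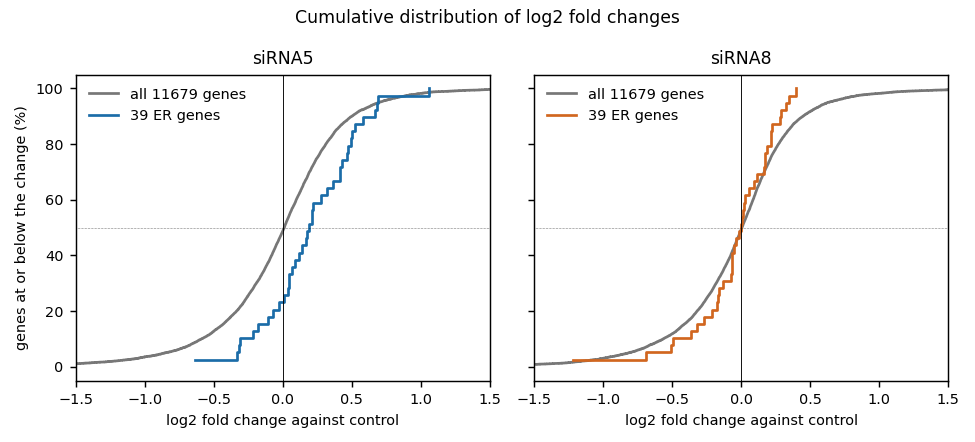
Cumulative share of genes (vertical axis, percent) at or below a log2 fold change against control (horizontal axis), for all 11679 genes in grey and the 39 ER genes in colour, 1 panel per siRNA; the horizontal axis is cropped at 1.5 in each direction. With siRNA5 the coloured curve crosses 50% at 0.19, to the right of the grey one, and meets it again at the upper end. With siRNA8 both cross 50% near 0.

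Levels per library are not part of the tables analysed here. Group levels were therefore rebuilt from the overall mean of a gene and its 2 fold changes, and they carry no spread of their own. The standard error (SE) of each log2 change stands for counting error and the modelled spread between libraries together.

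Among the stress sensors and their transcription factors, 3 of 5 rose (60%, against 24.4% of all genes) and 0 fell (against 22.0%) with siRNA5. With siRNA8, 1 rose (20%, against 21.0%) and 2 fell (40%, against 20.5%). The shares of all genes used for each role are higher at means of 500 or more (35.2% and 25.5%, and 29.9% and 25.3%). ATF6, the sensor that is cut in the Golgi to release a transcription factor, was rebuilt at 1369 normalized counts in NTC, 1536 with siRNA5 and 588.0 with siRNA8. The siRNA8 group stands far below both others, and siRNA5 slightly above the control. In the authors' deposited tables ATF6 fell 2.33-fold with siRNA8 (log2 -1.22, SE 0.0753, adjusted p = 1.37e-56), the 190th deepest fall of 11679 genes. With siRNA5 it rose by 0.17 (log2, SE 0.0666, adjusted p = 0.0301) per the authors' deposited tables, a call that ends at a threshold of 0.01. EIF2AK3, which encodes PERK, the kinase that slows translation by phosphorylating eIF2alpha, was rebuilt at 549.0, 882.8 and 544.3 normalized counts in NTC, siRNA5 and siRNA8. It rose 1.61-fold with siRNA5 (log2 0.69, SE 0.0863, adjusted p = 3.45e-14) while the log2 change with siRNA8 was -0.01 (SE 0.0902) per the authors' deposited tables. The siRNA5 group alone stands apart for this gene.

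CREB3L2, an ER-bound transcription factor of the ATF6 type, rose with both siRNAs, by 0.37 (log2, SE 0.0550) and 0.22 (SE 0.0551) per the authors' deposited tables. XBP1, whose mRNA is spliced by IRE1, fell by 0.17 (log2, SE 0.0554, adjusted p = 0.0066) with siRNA8 while the log2 change with siRNA5 was 0.04 (SE 0.0550, adjusted p = 0.595) per the authors' deposited tables. A sum over the gene cannot tell its spliced from its unspliced form. ERN1, which encodes IRE1 itself, had a mean of only 53.7 normalized counts. Its log2 changes of 0.52 (95% interval -0.07 to 1.11) and 0.01 (95% interval -0.60 to 0.61) per the authors' deposited tables did not pass the test. Rises of well over 1.5-fold lie within the siRNA5 interval, and changes of 1.5-fold in either direction lie within the siRNA8 interval.

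**Figure D3:**
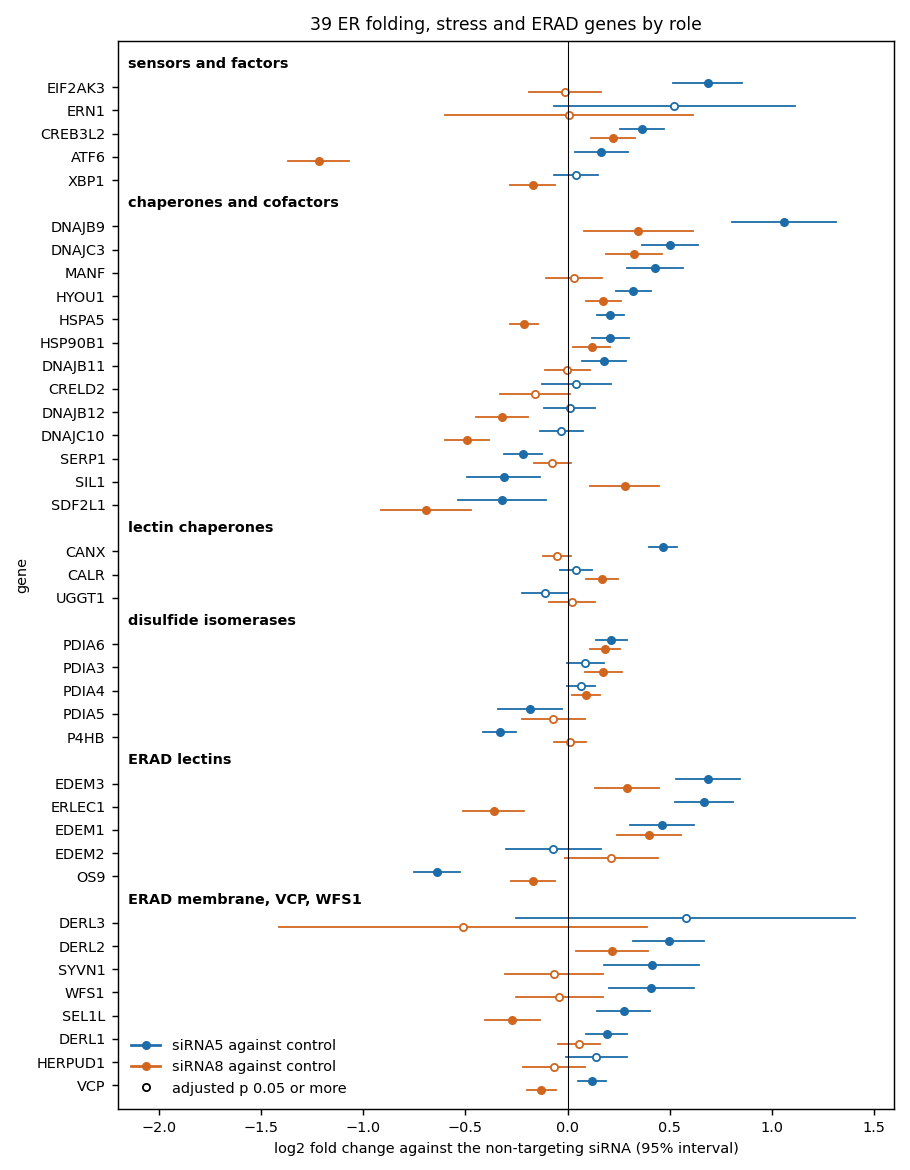
Log2 fold change against the non-targeting siRNA (horizontal axis) with its 95% interval for each of the 39 genes (rows, grouped by role), siRNA5 in blue and siRNA8 in orange; filled points have an adjusted p under 0.05. ATF6 with siRNA8 at -1.22 and DNAJB9 with siRNA5 at 1.06 are the only points beyond 2-fold.

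Of the 13 genes grouped as Hsp70 and Hsp90 chaperones and cofactors, 7 rose with siRNA5 (53.8%, against 24.4% of all genes). The 3 that fell with siRNA5 (23.1%) were near the share of all genes (22.0%). With siRNA8, 5 rose (38.5%, against 21.0%) and 4 fell (30.8%, against 20.5%). The 13 include SERP1, which is a translocon protein and 1 of the 3 siRNA5 falls. HSPA5 (BiP), the central ER chaperone, was rebuilt at 17485 normalized counts in NTC, 20215 with siRNA5 and 15099 with siRNA8. The control lies between the siRNAs. It rose 1.16-fold with siRNA5 (log2 0.21, SE 0.0344, adjusted p = 1.08e-08) and fell 1.16-fold with siRNA8 (log2 -0.21, SE 0.0346, adjusted p = 1.13e-08) per the authors' deposited tables. HSP90B1, which encodes GRP94, the Hsp90 of the ER, rose with both siRNAs, by 0.21 (log2, SE 0.0464) and 0.12 (SE 0.0463, adjusted p = 0.0294) per the authors' deposited tables. HYOU1, a large Hsp70-like exchange factor of BiP, also rose with both, by 0.32 (log2, SE 0.0432) and 0.17 (SE 0.0433) per the authors' deposited tables.

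The J-domain cofactors, which stimulate the ATPase of Hsp70, did not move as one. DNAJB9 (ERdj4) showed the largest rise of the 39 genes with siRNA5 (with siRNA8 it was EDEM1), from a rebuilt 188.8 normalized counts in NTC to 393.3 with siRNA5 and 240.1 with siRNA8. Both knockdown groups stand above the control, siRNA5 more so. It rose 2.08-fold with siRNA5 (log2 1.06, SE 0.131, adjusted p = 9.84e-15) and 1.27-fold with siRNA8 (log2 0.35, SE 0.136, adjusted p = 0.0288) per the authors' deposited tables. DNAJC3 (P58IPK), which also restrains PERK, rose by 0.50 (log2, SE 0.0699) and 0.33 (SE 0.0701) per the authors' deposited tables. DNAJB11 (ERdj3) rose by 0.18 (log2, SE 0.0552) with siRNA5 while the log2 change with siRNA8 was -0.001 (SE 0.0554) per the authors' deposited tables. DNAJC10 (ERdj5), a reductase that opens disulfides before ERAD, went from a rebuilt 3925 normalized counts in NTC to 3844 with siRNA5 and 2788 with siRNA8. Its siRNA8 group stands apart below the others. It fell 1.41-fold with siRNA8 (log2 -0.49, SE 0.0547, adjusted p = 5.71e-18) per the authors' deposited tables. DNAJB12, a J-protein of the ER membrane that works with cytosolic Hsp70, likewise fell by 0.32 (log2, SE 0.0653) with siRNA8, and its log2 change with siRNA5 was 0.01 (SE 0.0643) per the authors' deposited tables.

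Other partners of BiP moved in both directions. SIL1, a nucleotide exchange factor of BiP, fell by 0.31 (log2, SE 0.0919, adjusted p = 0.00216) with siRNA5 and rose by 0.28 (SE 0.0862, adjusted p = 0.00412) with siRNA8 per the authors' deposited tables, the reverse of HSPA5. MANF, a secreted ER stress protein that binds BiP, rose by 0.43 (log2, SE 0.0694) with siRNA5 while the log2 change with siRNA8 was 0.03 (SE 0.0706) per the authors' deposited tables. SDF2L1, which keeps BiP and J-protein complexes active, went from a rebuilt 635.1 normalized counts in NTC to 508.3 with siRNA5 and 392.9 with siRNA8. Both knockdown groups stand below the control. It fell by 0.32 (log2, SE 0.111, adjusted p = 0.0102) and by 0.69 (SE 0.113, adjusted p = 9.79e-09) per the authors' deposited tables. SERP1 (RAMP4) fell by 0.22 (log2, SE 0.0482) with siRNA5 per the authors' deposited tables. CRELD2, an ER stress protein, passed the test with neither siRNA (log2 0.04, 95% interval -0.13 to 0.21, and -0.16, 95% interval -0.33 to 0.01, per the authors' deposited tables).

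The lectin chaperones CANX (calnexin, membrane-bound) and CALR (calreticulin, soluble) share their monoglucosylated clients. CANX was rebuilt at 15150 normalized counts in NTC, 20972 with siRNA5 and 14607 with siRNA8, and only the siRNA5 group stands apart. It rose 1.38-fold with siRNA5 (log2 0.47, SE 0.0348, adjusted p = 1.8e-39) while the log2 change with siRNA8 was -0.05 (SE 0.0351, adjusted p = 0.228) per the authors' deposited tables. CALR rose by 0.17 (log2, SE 0.0400) with siRNA8 while the log2 change with siRNA5 was 0.04 (SE 0.0401, adjusted p = 0.42) per the authors' deposited tables. The difference between the siRNAs did not pass the test for CALR (log2 -0.13, SE 0.0567, adjusted p = 0.0734). It did pass with the variance of the shared control taken out (SE 0.0400, adjusted p = 0.00453). UGGT1, the glucosyltransferase that returns unfolded glycoproteins to these lectins, passed the test with neither siRNA (log2 -0.11, SE 0.0582, and 0.02, SE 0.0577, per the authors' deposited tables).

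Of the 5 disulfide isomerases, 1 rose (20%, against 24.4% of all genes) and 2 fell (40%, against 22.0%) with siRNA5. With siRNA8, 3 rose (60%, against 21.0%) and 0 fell (against 20.5%). PDIA6 rose with both siRNAs, by 0.21 (log2, SE 0.0381) and 0.18 (SE 0.0381) per the authors' deposited tables. P4HB, the classical isomerase PDI and a subunit of prolyl hydroxylase for collagen, was rebuilt at 17188 normalized counts in NTC, 13658 with siRNA5 and 17323 with siRNA8. The siRNA5 group alone stands lower. P4HB fell 1.26-fold with siRNA5 (log2 -0.33, SE 0.0411, adjusted p = 1.32e-14) while the log2 change with siRNA8 was 0.01 (SE 0.0408) per the authors' deposited tables. PDIA3 (ERp57), the partner of calnexin and calreticulin, and PDIA4 (ERp72) rose with siRNA8, by 0.17 (log2, SE 0.0460) and 0.09 (SE 0.0346, adjusted p = 0.0247), and had log2 changes of 0.09 and 0.06 with siRNA5 per the authors' deposited tables. PDIA5 fell by 0.18 (log2, SE 0.0802, adjusted p = 0.0476) with siRNA5 per the authors' deposited tables, just inside the threshold. Outside the 39, ERO1A, the oxidase that recharges PDI, rose by 0.86 (log2, SE 0.0674, adjusted p = 2.73e-35) with siRNA5 and by 0.24 (SE 0.0692) with siRNA8 per the authors' deposited tables. Its paralog ERO1B rose by 0.43 (log2, SE 0.143) with siRNA5, whereas with siRNA8 it fell by 0.46 (SE 0.153) per the authors' deposited tables.

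Of the 5 ERAD lectins and mannosidase-like proteins, 3 rose with siRNA5 (60%, against 24.4% of all genes) and 1 fell (20%, against 22.0%). Of these changes 3 were of at least 1.5-fold (60% of the 5, against 17.6% of all genes). With siRNA8, 2 rose (40%, against 21.0%) and 2 fell (40%, against 20.5%), and 0 were of at least 1.5-fold (against 15.4%). EDEM3, which trims mannose from misfolded glycoproteins, was rebuilt at 771.6 normalized counts in NTC, 1243 with siRNA5 and 944.5 with siRNA8. Both knockdown groups stand above the control. It rose 1.61-fold (log2 0.69, SE 0.0795, adjusted p = 1.18e-16) and 1.22-fold (log2 0.29, SE 0.0805, adjusted p = 0.00121) per the authors' deposited tables. Its relative EDEM1 rose by 0.46 (log2, SE 0.0798) and 0.40 (SE 0.0796) per the authors' deposited tables. EDEM2, which makes the first trimming cut, passed the test with neither siRNA (log2 -0.07, SE 0.119, and 0.21, SE 0.115, per the authors' deposited tables).

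The lectins that read the trimmed glycans, ERLEC1 (XTP3-B) and OS9, both deliver clients to SEL1L, and they moved apart with siRNA5. ERLEC1 was rebuilt at 1047 normalized counts in NTC, 1663 with siRNA5 and 814.6 with siRNA8, with the control between the siRNAs. It rose 1.59-fold with siRNA5 (log2 0.67, SE 0.0723, adjusted p = 7.34e-19) and fell 1.29-fold with siRNA8 (log2 -0.36, SE 0.0767, adjusted p = 1.52e-05) per the authors' deposited tables. OS9 was rebuilt at 2131 normalized counts in NTC, 1369 with siRNA5 and 1896 with siRNA8, with both knockdown groups below the control. It fell 1.56-fold with siRNA5 (log2 -0.64, SE 0.0580, adjusted p = 1.57e-26), the deepest fall of the 39 genes with that siRNA, and 1.12-fold with siRNA8 (log2 -0.17, SE 0.0552, adjusted p = 0.00756) per the authors' deposited tables.

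**Figure D4:**
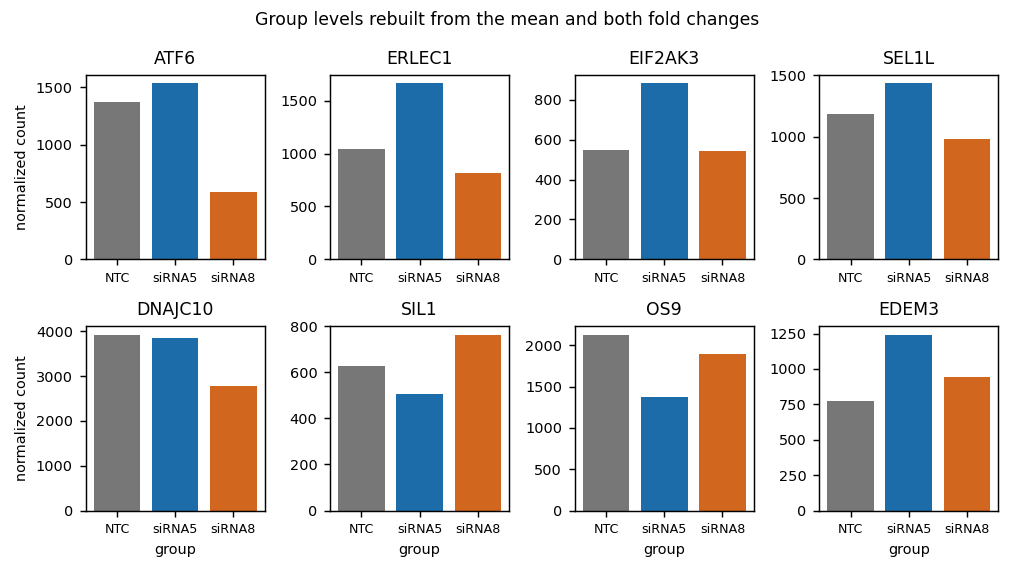
Rebuilt group levels in normalized counts (vertical axes, each starting at 0 and scaled to its gene) for 8 genes in the control (NTC), siRNA5 and siRNA8 groups; the bars have no error because the tables give no spread per group. The examples cover a sensor low with siRNA8 and slightly above the control with siRNA5 (ATF6, 588.0 and 1536 against 1369 in NTC). They also cover a gene high with siRNA5 only (EIF2AK3, 882.8 against 549.0) and other genes with the control between the siRNAs (ERLEC1, SEL1L, SIL1).

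Of the 8 genes of the ERAD membrane complex and related membrane and segregase proteins, 6 rose with siRNA5 (75%, against 24.4% of all genes). With that siRNA 0 fell (against 22.0%). With siRNA8, 1 rose (12.5%, against 21.0%) and 2 fell (25%, against 20.5%). SEL1L, the scaffold of the complex, was rebuilt at 1187 normalized counts in NTC, 1436 with siRNA5 and 984.2 with siRNA8, with the control in the middle. It rose by 0.27 (log2, SE 0.0665, adjusted p = 0.000158) and fell by 0.27 (SE 0.0685, adjusted p = 0.000368) per the authors' deposited tables. SYVN1 (HRD1), the ubiquitin ligase that SEL1L holds, rose by 0.41 (log2, SE 0.118, adjusted p = 0.00172) with siRNA5 while the log2 change with siRNA8 was -0.07 (SE 0.122) per the authors' deposited tables. VCP (p97), the ATPase that extracts clients from the membrane, rose by 0.12 (log2, SE 0.0355) with siRNA5, whereas with siRNA8 it fell by 0.13 (SE 0.0357) per the authors' deposited tables.

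The derlins line the exit channel. DERL2 rose with both siRNAs, by 0.49 (log2, SE 0.0891) and 0.22 (SE 0.0902, adjusted p = 0.039), and DERL1 rose by 0.19 (log2, SE 0.0513) with siRNA5 per the authors' deposited tables. DERL3 had a mean of only 21.6 normalized counts, and its log2 changes of 0.58 (95% interval -0.25 to 1.41) and -0.51 (95% interval -1.41 to 0.39) per the authors' deposited tables leave more than a 2-fold change in one direction within each interval. WFS1 (wolframin), an ER membrane protein of calcium balance, rose by 0.41 (log2, SE 0.105) with siRNA5 while the log2 change with siRNA8 was -0.04 (SE 0.108) per the authors' deposited tables. HERPUD1, which recruits the ligase complex and is among the usual markers of ER stress, passed the test with neither siRNA (log2 0.14, 95% interval -0.01 to 0.29, and -0.07, 95% interval -0.22 to 0.09, per the authors' deposited tables).

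The genes that hold the elements printed above moved in both directions against the control. Of the 11 genes with ERSE or ERSE-II, 5 rose (45.5%, against 24.4% of all genes) and 2 fell (18.2%, against 22.0%) with siRNA5. With siRNA8, 4 rose (36.4%, against 21.0%) and 3 fell (27.3%, against 20.5%). All 11 have means above 500, the lowest being SDF2L1 at 512.1. Among genes with a mean of at least 500, 35.2% rose and 25.5% fell with siRNA5, and 29.9% rose and 25.3% fell with siRNA8. The shares of the 11 lie nearer to these. The median log2 changes of the 11 were 0.14 and -0.07. Of the 25 genes with a window and neither element, 15 rose (60%) and 4 fell (16%) with siRNA5. With siRNA8, 8 of the 25 rose (32%) and 7 fell (28%), and the medians were 0.27 and 0.01. In the direct comparison of the siRNAs described next, 17.2% of all genes were higher with siRNA5 and 14.8% lower (26.9% and 21.6% at means of at least 500). There 4 of the 11 were higher (36.4%) and 0 lower (median 0.20), and 12 of the 25 were higher (48%) and 3 lower (12%, median 0.28). With siRNA8, where the ATF6 mRNA was lower, the 11 genes ranged from -0.69 (SDF2L1, ERSE-II) to 0.18 (PDIA6, ERSE) on the log2 scale, and the 8 with ERSE from -0.21 (HSPA5) upward. The UPRE genes DNAJC10 and VCP fell with siRNA8, while HYOU1, which holds UPRE and ERSE-II, rose. These counts are a description without a test, the activity of the ATF6 protein was not measured, and elements outside the windows or with a mismatch were not searched. Outside the 39 genes, 18 measured genes hold ERSE or ERSE-II in a window, and of these 4 rose (22.2%, against 24.4% of all genes) and 7 fell (38.9%, against 22.0%) with siRNA5. With siRNA8, 1 rose (5.56%, against 21.0%) and 5 fell (27.8%, against 20.5%).

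The direct comparison asked where the 2 siRNAs differ from each other. The test divides the difference of the 2 log2 changes by the root of their summed squared SEs, which overstates the error because the controls are shared. Of the 39 genes, 16 were higher with siRNA5 than with siRNA8 and 3 were lower, where 17.2% of all genes were higher and 14.8% were lower. Restricted to means of 500 or more, the shares were 15 of 33 members higher (45.5%, against 26.9% of genes) and 3 of 33 lower (9.09%, against 21.6%). With the variance of the shared control taken out, 25 members were higher (64.1%, against 24.9% of all genes) and 7 lower (17.9%, against 23.2%). The median difference was 0.21 on the log2 scale over the 39 genes and 0.00 over all genes.

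ATF6 showed the largest difference, 2.61-fold higher with siRNA5 than with siRNA8 (log2 1.38, SE 0.101, adjusted p = 9.62e-41). ERLEC1 was 2.04-fold higher (log2 1.03, SE 0.105, adjusted p = 1.04e-20), DNAJB9 1.64-fold (log2 0.71, SE 0.189, adjusted p = 0.000965) and EIF2AK3 1.62-fold higher with siRNA5 (log2 0.70, SE 0.125, adjusted p = 2.91e-07). CANX and HSPA5 were higher with siRNA5 by 0.52 (log2, SE 0.0494, adjusted p = 3.65e-24) and 0.42 (SE 0.0488, adjusted p = 3.13e-16). The ligase pair was higher with siRNA5 as well, SEL1L by 0.55 (log2, SE 0.0954) and SYVN1 by 0.48 (SE 0.170, adjusted p = 0.0185). The 3 genes that were lower with siRNA5 came from 3 roles: SIL1 was 1.51-fold lower (log2 -0.59, SE 0.126, adjusted p = 2.23e-05), OS9 1.39-fold (log2 -0.47, SE 0.0800) and P4HB 1.27-fold lower (log2 -0.34, SE 0.0579).

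Several genes gave no difference between the siRNAs that passed the test. For EDEM1 the difference was 0.06 (log2, 95% interval -0.16 to 0.29), for PDIA6 0.03 (95% interval -0.08 to 0.14), for PDIA4 -0.03 (95% interval -0.12 to 0.07) and for HSP90B1 0.09 (95% interval -0.04 to 0.22). The PDIA6, PDIA4 and HSP90B1 intervals are narrow, so that a difference of 1.5-fold lies outside them, and the EDEM1 interval also ends below that size. HYOU1 lay at the threshold (log2 0.15, SE 0.0611, adjusted p = 0.0495), and centring on the median of all genes ends the call (adjusted p = 0.0505). With the variance of the shared control taken out, HYOU1 passed the test (SE 0.0427, adjusted p = 0.00175).

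The remaining machinery of the ER was read from 8 further lists, whose counts stand against 24.4% of all genes rising and 22.0% falling with siRNA5, and 21.0% rising and 20.5% falling with siRNA8. These shares are higher among genes with a mean of 500 or more (35.2% and 25.5%, and 29.9% and 25.3%), and the median mean of the lists ran from 463 (ER-phagy) to 1793 (translocon). In the PERK and ATF4 branch, which PERK feeds through translation of ATF4, 3 of 12 genes rose (25%) and 1 fell (8.33%) with siRNA5, and 4 rose (33.3%) and 2 fell (16.7%) with siRNA8. The siRNA5 rises were at the share of all genes. PPP1R15A (GADD34), which reverses eIF2alpha phosphorylation, rose by 0.37 (log2, SE 0.0895) and 0.91 (SE 0.0869) per the authors' deposited tables. ASNS, asparagine synthetase, rose by 0.52 (log2, SE 0.107) and 0.30 (SE 0.107) per the authors' deposited tables. In the other direction, CEBPB fell by 0.61 (log2, SE 0.132) with siRNA5 per the authors' deposited tables. With siRNA8, CEBPG fell by 0.39 (log2, SE 0.0909) and PPP1R15B by 0.17 (SE 0.0736, adjusted p = 0.0499) per the authors' deposited tables. Of 14 other regulators, 3 rose (21.4%) and 7 fell (50%) with siRNA5, and 2 rose and 2 fell (14.3% each) with siRNA8. Among those that fell, BAX, an effector of apoptosis, fell by 0.42 (log2, SE 0.0825) with siRNA5, and CREB3, an ER-bound transcription factor, fell by 0.22 (SE 0.0915) and 0.24 (SE 0.0907) per the authors' deposited tables. MBTPS2, the protease that completes the cut of ATF6, rose by 0.37 (log2, SE 0.0912) and 0.42 (SE 0.0901) per the authors' deposited tables.

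Among 25 genes of the translocon, signal recognition and signal peptidase, 13 rose (52%) and 2 fell (8%) with siRNA5, and 7 rose (28%) and 4 fell (16%) with siRNA8. SRPRA, a subunit of the signal recognition receptor, rose by 0.89 (log2, SE 0.0578) and 0.69 (SE 0.0580) per the authors' deposited tables. SEC61A1, the channel itself, rose by 0.13 (log2, SE 0.0417) with siRNA5, whereas with siRNA8 it fell by 0.34 (SE 0.0422) per the authors' deposited tables. Of 12 oligosaccharyltransferase subunits, which attach the glycans, 4 rose (33.3%) and 2 fell (16.7%) with siRNA5, and 5 rose (41.7%) and 3 fell (25%) with siRNA8. STT3B, a catalytic subunit, rose by 0.49 (log2, SE 0.0422) and 0.30 (SE 0.0423) per the authors' deposited tables.

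Of 19 other isomerases and redox enzymes, 10 rose (52.6%) and 4 fell (21.1%) with siRNA5, and 8 rose (42.1%) and 2 fell (10.5%) with siRNA8. TXNDC11 rose by 0.54 (log2, SE 0.0906) with siRNA5, whereas with siRNA8 it fell by 0.26 (SE 0.0949) per the authors' deposited tables. Of 36 other ERAD ligases, recruiters and segregase cofactors, 17 rose (47.2%) and 9 fell (25%) with siRNA5, and 9 rose (25%) and 10 fell (27.8%) with siRNA8. ERLIN2, which recruits ERAD to the inositol trisphosphate receptor, rose by 0.52 (log2, SE 0.0891) with siRNA5, whereas with siRNA8 it fell by 0.95 (SE 0.0989) per the authors' deposited tables. SELENOS, which ties VCP to the derlins, rose by 0.62 (log2, SE 0.0832) with siRNA5 while the log2 change with siRNA8 was -0.05 (SE 0.0866) per the authors' deposited tables. Of 17 glucosidase and calcium genes, 7 rose and 7 fell (41.2% each) with siRNA5, and 3 rose (17.6%) and 2 fell (11.8%) with siRNA8. MOGS, glucosidase I, fell by 0.73 (log2, SE 0.0809) and 0.53 (SE 0.0784) per the authors' deposited tables, and ATP2A2 (SERCA2), the calcium pump that fills the ER, rose by 0.54 (log2, SE 0.0412) and 0.18 (SE 0.0415) per the authors' deposited tables. Of 9 ER-phagy receptors, 4 rose (44.4%) and 2 fell (22.2%) with siRNA5, and 2 rose and 2 fell (22.2% each) with siRNA8, so that all but the siRNA5 rises were near the shares of all genes. SQSTM1 rose by 0.24 (log2, SE 0.0597) and 0.22 (SE 0.0596) per the authors' deposited tables.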

How the data were processed

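Polyadenylated RNA of 6 libraries of 786-O cells (2 per group) was read as paired ends of 42 bases. The submitters' processing notes name STAR, Picard, HTSeq and DESeq2 and the build hg19, without versions. The authors deposited 1 table per siRNA. Per the file headers, each holds a mean normalized count as signal (the same in both tables), log2 fold changes with SEs, a Wald score and p-values with adjusted p-values. The score, p-values and Benjamini-Hochberg adjustment over 11681 rows were recomputed and matched to within rounding. The counter rows of HTSeq (no feature, ambiguous) held 6.23% and 1.62% of the summed means and were left out here. Direction was read from ALYREF, and tables were tied to siRNAs by the number in the library titles. The sources used here give no depth per library.

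Group levels were rebuilt as the control level that, with both fold changes and 2 libraries per group, gives the deposited mean. This takes the fold changes as unshrunken. The dispersions (squared relative spreads between libraries) rebuilt from the 2 SEs then differed by a median of 2.08% over 5538 genes whose mean was 500 or more. Genes with lower means, such as DERL3 and ERN1, were not part of that check. For siRNA5 against siRNA8 the log2 changes were subtracted, with a normal two-sided p, adjusted over 11679 genes (Python 3.11.15, SciPy 1.17.1), and the code was tested on simulated data. The 39 members and all lists were chosen with earlier results of these data known. Lists were matched through RefSeq synonyms. Named genes are all members, ALYREF and, per further list, some of the 2 largest called rises and falls per siRNA with a mean of at least 100. CA9, LRP2, PAX8, COL1A1, PDGFRB and the holders of motifs were named as list members. A protein tail comparison listed in the plan was not run.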

Additional observations from a re-analysis of the deposited data

Results flagged for a closer look

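The log2 changes of 19 ER genes and of ALYREF differed between siRNA5 and siRNA8 by the test of the difference. On the log2 scale, siRNA5 over siRNA8, the differences were 1.38 for ATF6, 1.03 for ERLEC1, 0.71 for DNAJB9, 0.70 for EIF2AK3, 0.55 for SEL1L and 0.52 for CANX. They were 0.48 for SYVN1, 0.46 for DNAJC10, 0.45 for WFS1, 0.42 for HSPA5, 0.40 for MANF and 0.40 for EDEM3. They were 0.33 for DNAJB12, 0.25 for VCP, 0.21 for XBP1 and 0.15 for HYOU1. Lower with siRNA5 were SIL1 (-0.59), OS9 (-0.47) and P4HB (-0.34). ALYREF itself differed by -0.47 (SE 0.128, adjusted p = 0.00152), with 5.67% of its control level left with siRNA5 and 7.83% with siRNA8. The part of this gap in knockdown depth in the differences of the ER genes was not tested. ATF6, HSPA5, ERLEC1, SEL1L and VCP rose with siRNA5 and fell with siRNA8 against the same control, and SIL1 did the reverse. The siRNA5 call of ATF6 ends at a threshold of 0.01.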

How the results depend on the processing

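A minimum change of 1.5-fold left 4 members higher and 1 lower with siRNA5, 0 higher and 2 lower with siRNA8, and 4 higher and 1 lower for siRNA5 against siRNA8. Taking out the shared control variance moved the direct comparison from 16 and 3 to 25 and 7. The 13 members that gained a call were CALR, DNAJB11, DNAJC3, SDF2L1, CRELD2, EDEM2, DERL1, DERL2, DERL3, HERPUD1, UGGT1, SERP1 and CREB3L2. All other counts of the 39 members stayed within 1.5 times under a threshold of 0.01, centring, means of at least 50 or 500, and addition of ERO1A and ERO1B, the last chosen after seeing the data. Of the 32 counts of the 8 further lists against NTC, 8 moved by more at a threshold of 0.01: translocon with siRNA8 from 7 to 4 higher and 4 to 2 lower, and 6 counts (lower with siRNA5 for oligosaccharyltransferase and translocon, lower with siRNA8 for the PERK branch, other regulators, other isomerases and ER-phagy) from 2 to 1. With means of at least 500, 6 moved: other ERAD genes with siRNA5 from 9 to 4 lower, the PERK branch with siRNA5 from 1 to 0 lower, and 4 counts (ER-phagy lower with siRNA5 and higher with siRNA8, other regulators higher and lower with siRNA8) from 2 to 1. At least 1.5-fold moved 31 of the 32, and centring or means of at least 50 moved 0. Centring turned the sign of DNAJB12 with siRNA5, which had not passed the test, from 0.01 to -0.0002. At a threshold of 0.01, 3 members with siRNA5 (PDIA5, SDF2L1, ATF6), 4 with siRNA8 (HSP90B1, PDIA4, DNAJB9, DERL2) and 4 in the direct comparison (HYOU1, SYVN1, XBP1, WFS1) lost their calls. No paired analysis was possible because the tables hold no values per library, and for the same reason replicates could not be left out and edgeR was not run.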
